A study of Saccharomyces cerevisiae with 255 samples.

Results

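Deletion of a region of the RNA-binding protein Nab6 was followed here in 2 yeast strains, Nab6_Δ4 and Nab6_Δ2, against the strain with intact Nab6. The libraries were chosen by their strain labels, and they are 7 of the 255 libraries of the series, with 2 libraries of Nab6_Δ4, 2 of Nab6_Δ2 and 3 of Nab6. In all 3 strains the background is BY4741, a haploid MATa laboratory strain, and the NAB6 gene at its own locus encodes a fusion with Pup2. The genotypes are BY4741 NAB6::Nab6_{delta}4-Pup2, BY4741 NAB6::Nab6_{delta}2-Pup2 and BY4741 NAB6::Nab6-Pup2. Cells grew in synthetic medium with glucose and were collected in exponential phase. The study deleted the regions of Nab6 that carry RNA-binding domains (RBDs) one at a time, but which residues Δ4 and Δ2 remove is not given in the sources used here. The libraries of Nab6_Δ4 come from 2 clones by their titles. For Nab6 the titles only number the libraries, and for Nab6_Δ2 they add a suffix R that the sources used here do not explain, so that p-values measure the spread between libraries, which may be technical in part.

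Pup2 is the PUP-2 poly(U) polymerase of Caenorhabditis elegans, which adds uridines (Us) to the end of the poly(A) tail of mRNAs that its fusion partner binds. In RNA tagging, the U stretches left behind on a transcript thus record in vivo contacts with the RNA-binding protein. Nab6 is a yeast RNA-binding protein with several RNA recognition motifs separated by long disordered stretches, and mRNAs of cell wall proteins are known among the transcripts it binds. The yeast cell wall is built from glucans, chitin and mannoproteins, many of which are held by a GPI anchor or, for the PIR proteins, by direct linkage to glucan.

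Reads with 4–13 Us are called tagged reads here, and the tagged share of a gene is the percentage of its reads that are tagged. Reads were scaled to 1e+06 per library (RPM). For the modification level of a gene, the RPM at each length of 4–13 Us were multiplied by that length, added up and divided by the RPM of all reads of the gene. Genes with a modification level above 0.15 and at least 16 RPM in the mean of the libraries of a strain are called targets. Values of the strain Nab6_ΔIDR_1, from which a disordered region is deleted, and of strains with catalytically inactive Pup2 (dPup2) are used for reference. The 77 targets of Nab6_ΔIDR_1 with at least 100 reads serve as a list chosen without the 7 libraries, and 48 of them were targets in Nab6_Δ4, 61 in Nab6_Δ2 and 64 in Nab6.

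Transcript ends of the targets held the 6-nt sequence GTTCNT, where N is any base, in a larger share of genes than other transcript ends. The match was searched on the coding strand over 300 nt after the stop codon, and it was chosen after the values had been seen. It was found in 64.5% of the Nab6_Δ4 targets, 51.0% of the Nab6_Δ2 targets and 52.8% of the Nab6 targets, against 26.4% of the genes at 16 RPM or more that were no target of the 3 strains and 28.3% of all 5944 genes. On the opposite strand the 3 target sets held it in 19.4%, 27.8% and 27.8% of genes. The coding-strand shares were closer for targets above 0.15 in every library of their strain with at least 100 reads. There the match was found in 68.8% for Nab6_Δ4, 66.7% for Nab6_Δ2 and 70% for Nab6. The lines below show 30 bases around the match, 5′ to 3′ on the coding strand with the match in capitals, for genes whose tagged share differed between strains and for strong targets of each strain, since it is on these transcripts that the strains were compared.
CCW14 chrXII:904658-904687 (+): gatcagctccttGTTCTTttcatttcaaag
MRH1 chrIV:509284-509313 (+): ttcaatattttcGTTCGTtaaattatcacc
SCW4 chrVII:1048607-1048636 (-): tttcctattttaGTTCGTttatgatctcat
HSP150 chrX:121869-121898 (+): ttcccattattgGTTCGTttggcaatgcta
CWP2 chrXI:259696-259725 (+): tactttaacgatGTTCCTgtgatttctctt
MFA1 chrIV:1385344-1385373 (+): tatatcatgtttGTTCGTaatatttctttt
AGA2 chrVII:436524-436553 (-): ttccatttcatcGTTCGTgacacttataaa
UTH1 chrXI:520695-520724 (+): atttttcaattaGTTCGTttttccacaata
SUC2 chrIX:39137-39166 (+): tacctggaatttGTTCTTtatgtactttat
Coordinates and bases are those of the RefSeq genome of the build R64. HSP150 and UTH1 hold a second match each. No match lay in this window of TIP1, CTS1, HYP2, SSB2, PMA1 or YCR024C-B, which were targets too.

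The libraries held 5553199 and 3965550 reads in Nab6_Δ4, 921988 and 2001619 in Nab6_Δ2, and 2269919, 1178106 and 465216 in Nab6, so that library 4 of Nab6 was the shallowest. Binding reliability, the median over 4–13 Us of the best correlation of a U length with another, was at least 0.934 in every library. MATa genes summed to at least 4352 RPM in every library and MATα genes to at most 32.2 RPM. NAB6 itself had 14.6 and 16.1 RPM in Nab6_Δ4, 23.9 and 22.5 RPM in Nab6_Δ2 and 26.0, 17.8 and 21.5 RPM in Nab6, with no tagged read. These reads come from the 3′ end of the gene (chrXIII:34243-37647) and do not check the deletion. The log2 fold change of NAB6 was -0.41 ± 0.26 (SE, edgeR adjusted p = 0.31) for Nab6_Δ4 and -0.03 ± 0.26 (edgeR adjusted p = 0.996) for Nab6_Δ2 against Nab6. Both Nab6_Δ4 libraries nonetheless lay below all other libraries in NAB6 RPM. The reads do not measure the amount of the fusion protein.

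A pair of libraries stood apart from the others of their strains. Over genes that are no Nab6 target, the tagged share was 0.107% and 0.123% in Nab6_Δ4, 0.349% and 0.168% in Nab6_Δ2, and 0.120%, 0.102% and 0.453% in Nab6. Thus library 1 of Nab6_Δ2 and library 4 of Nab6 had the highest tagged share on nontargets. The same 2 libraries had the most reads of transcripts from the ribosomal DNA locus, such as YLR154W-F with 50.1 and 31.3 RPM in Nab6_Δ4, 1930 and 431 RPM in Nab6_Δ2, and 20.7, 10.2 and 1599 RPM in Nab6. The part of this in the results was not tested beyond the values given below without these libraries. In 11 dPup2 libraries of the series, the tagged share of all reads was 0.00761% to 0.0191%.

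**Figure D1:**
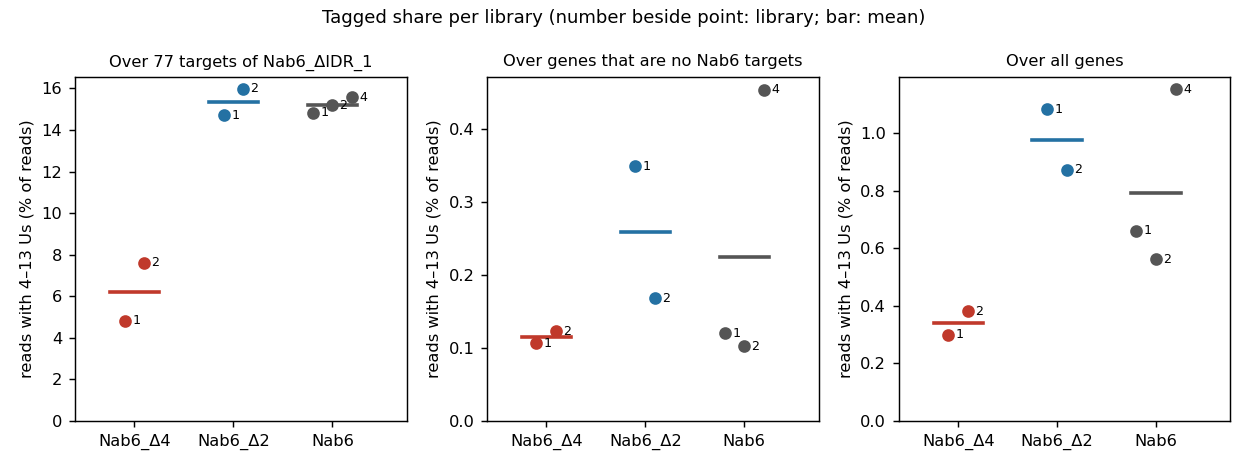
Tagged share per library (y axes, percent of reads with 4–13 Us) over the 77 targets of Nab6_ΔIDR_1, over genes that are no Nab6 target and over all reads, for Nab6_Δ4, Nab6_Δ2 and Nab6 from left to right, with a point for each library and a bar at the mean. On the 77 targets both Nab6_Δ4 libraries, at 4.83% and 7.62%, lie below all others, while Nab6_Δ2 lies at the level of Nab6. On nontargets library 1 of Nab6_Δ2 and library 4 of Nab6 lie above the rest.

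The tagged share of Nab6 targets was lower in Nab6_Δ4 than in Nab6 and, pooled over the targets, close to that of Nab6 in Nab6_Δ2. Over the 77 targets of Nab6_ΔIDR_1, 4.83% and 7.62% of reads were tagged in Nab6_Δ4, 14.7% and 15.98% in Nab6_Δ2, and 14.8%, 15.2% and 15.6% in Nab6. The means were 6.22% ± 1.98 (SD, n = 2) in Nab6_Δ4, 15.4% ± 0.895 (SD, n = 2) in Nab6_Δ2 and 15.2% ± 0.368 (SD, n = 3) in Nab6. Nab6_Δ4 thus had 0.410 times the share of Nab6 with no overlap of libraries, and Nab6_Δ2 had 1.01 times the share with the libraries overlapping. The exact permutation test (two-sided) gave p = 0.2 for Nab6_Δ4 against Nab6, the smallest that 2 against 3 libraries allow, and p = 1 for Nab6_Δ2 against Nab6. Between Nab6_Δ4 and Nab6_Δ2 the ratio was 0.405 and the exact permutation p was 0.333, the smallest that 2 against 2 libraries allow.

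Over all reads of the library, the tagged share was 0.299% and 0.382% in Nab6_Δ4, 1.08% and 0.872% in Nab6_Δ2, and 0.660%, 0.561% and 1.15% in Nab6. The exact permutation p was 0.2 for Nab6_Δ4 against Nab6, 0.6 for Nab6_Δ2 against Nab6 and 0.333 for Nab6_Δ4 against Nab6_Δ2. The order of Nab6_Δ4 below the others held over all reads, over targets and for both of its clones, and the clones themselves differed, with library 2 above library 1 in each of these shares.

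**Figure D2:**
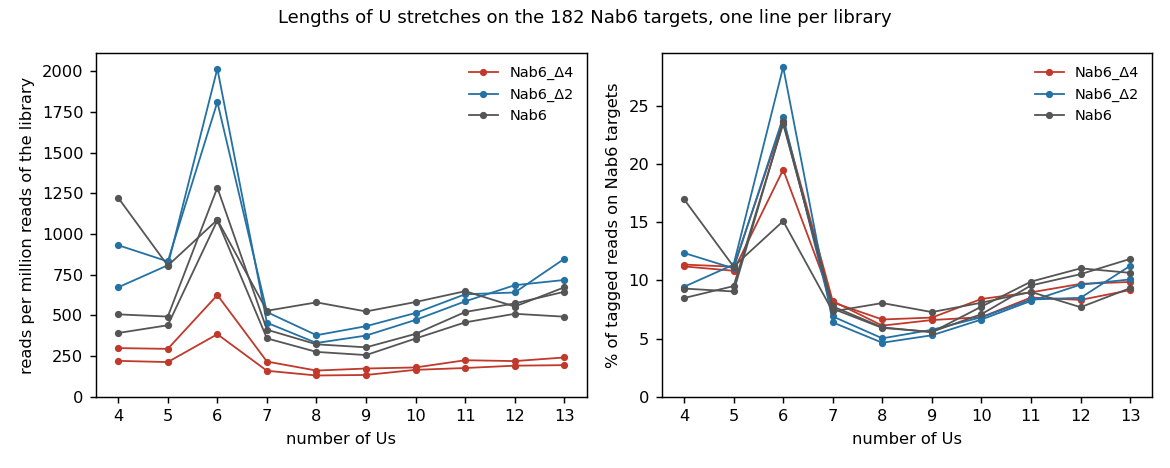
Lengths of the U stretches on the 182 Nab6 targets, with the number of Us on the x axis and, on the y axes, the RPM (left) and the percent of the tagged reads (right), with a line for each library. The lines of Nab6_Δ4 run lowest in RPM, and the share of 6-U reads peaks in every library but library 4 of Nab6.

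The lengths of the U stretches overlapped between the 3 strains. On the 182 Nab6 targets, the mean length of tagged stretches was 8.02 ± 0.169 Us (SD, n = 2) in Nab6_Δ4, 7.97 ± 0.000325 Us (SD, n = 2) in Nab6_Δ2 and 8.17 ± 0.242 Us (SD, n = 3) in Nab6, and the libraries overlapped (exact permutation p = 0.6 for either deletion against Nab6). Stretches of 6 Us were the most frequent tagged length and made up 19.5% and 23.7% of tagged reads in Nab6_Δ4, 24.0% and 28.3% in Nab6_Δ2, and 23.6%, 23.4% and 15.1% in Nab6. In library 4 of Nab6 the most frequent length was 4 Us, with 16.96%. Stretches of 15 Us, outside the tagged lengths, were set against the tagged reads on the same targets. They came to 20.2% and 20.8% in Nab6_Δ4, 44.5% and 39.7% in Nab6_Δ2, and 35.7%, 22.7% and 26.2% in Nab6. Both Nab6_Δ4 libraries were thus below all others at this length.

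Nab6_Δ4 had 62 targets, Nab6_Δ2 had 151 and Nab6 had 182. Of the Nab6_Δ4 targets, 53 were Nab6 targets (85.5% of the Nab6_Δ4 targets and 29.1% of the Nab6 targets). Nab6_Δ2 shared 73 targets with Nab6 (48.3% of the Nab6_Δ2 targets and 40.1% of the Nab6 targets), and 49 genes were targets in all 3 strains. Many of the remaining targets rested on few reads. Of the 129 Nab6 targets that were not Nab6_Δ4 targets, 96 had at most 3 tagged reads over the Nab6 libraries, and single libraries of Nab6 gave 108, 123 and 381 targets, the last from library 4. Without library 4, Nab6 had 95 targets.

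With a modification level above 0.15 in every library of a strain and at least 100 reads, 48 targets remained in Nab6_Δ4, 63 in Nab6_Δ2 and 60 in Nab6. Nab6_Δ4 then shared 43 with Nab6 (89.6% of its own and 71.7% of the Nab6 targets) and Nab6_Δ2 shared 49 (77.8% of its own and 81.7% of the Nab6 targets). By this count the target sets of the strains were closer in size and content than by the count over mean levels. The rule was not equally strict, since it asked for 3 libraries in Nab6 and 2 in each deletion strain. The minimum of 100 reads was also easier to reach in the deeper libraries of Nab6_Δ4.

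The 78 targets of Nab6_Δ2 that were not Nab6 targets came mostly from library 1. Of these, 73 passed the threshold in library 1, 14 in library 2 and 9 in both, and 65 had at most 3 tagged reads. Pooled over these genes, the tagged share was 0.438% and 0.427% in Nab6_Δ4, 4.24% and 1.90% in Nab6_Δ2, and 0.741%, 0.817% and 1.40% in Nab6, values that the choice of the genes has in part fixed. With both libraries over the threshold and 100 reads, 4 of them were left, namely DDR2, RKM3, UTP6 and PMP1. DDR2, a stress-induced gene, had 0.527% (5 of 949 reads) and 1.55% (2 of 129 reads) tagged in Nab6_Δ4, 13.04% (6 of 46 reads) and 23.0% (17 of 74 reads) in Nab6_Δ2, and 14.8%, 20% and 0% in Nab6 on 27, 5 and 7 reads. DDR2 was under the expression minimum in Nab6 and its tagged share there overlapped that of Nab6_Δ2.

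Genes with the highest modification levels were largely of the cell surface in the 3 strains. In Nab6_Δ4 these were MFA1 (a-factor) with 1.35, CCW14 (a GPI-anchored wall glycoprotein) with 1.20, BGL2 (a wall glucanosyltransferase) with 1.09, AGA2 (the adhesion subunit of a-agglutinin) with 1.08 and UTH1 (a SUN family protein) with 0.98. In Nab6_Δ2 the order began with AGA2 at 2.54, UTH1 at 2.45, TIP1 (a GPI-anchored mannoprotein) at 2.33, CTS1 (the endochitinase of cell separation) at 2.31 and CCW14 at 2.30. In Nab6 it began with SUC2 (invertase) at 2.95, CCW14 at 2.74, GAS3 at 2.23 and GAS5 at 2.23 (both of the GAS family of glucan-remodelling enzymes) and AGA2 at 2.11. ASP3-4, among the 10 highest in Nab6_Δ4, has near-identical copies in the genome and its reads could be split between them.

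**Figure D3:**
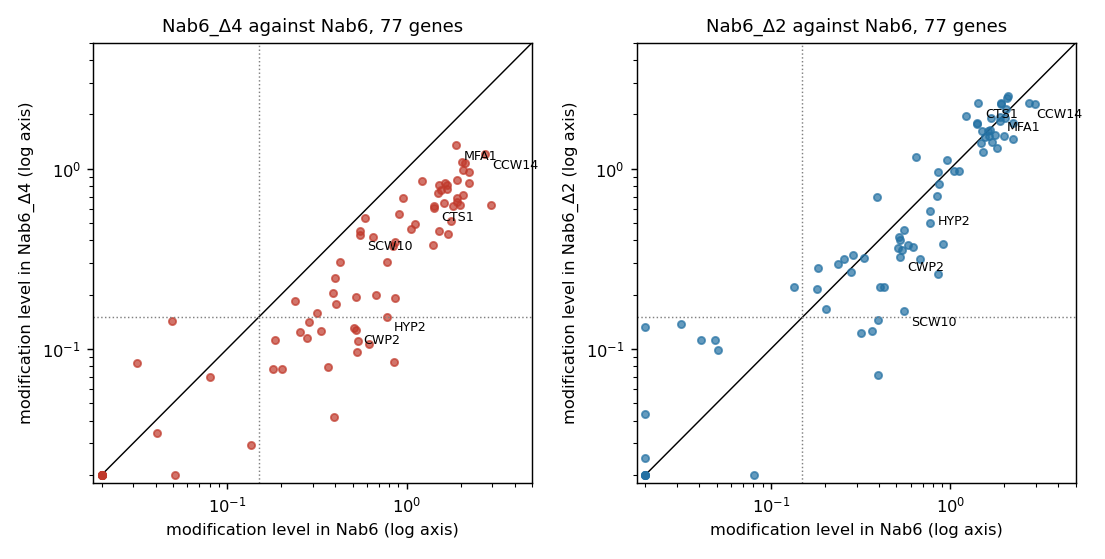
Modification level of the 77 targets of Nab6_ΔIDR_1 in Nab6_Δ4 (left) and in Nab6_Δ2 (right) on the y axis against Nab6 on the x axis, on log axes, with a point for each gene, the line of equality and dotted lines at 0.15. Values under 0.02 are drawn at 0.02. In Nab6_Δ4, 68 of 77 genes lie below the line, with a median ratio of 0.438, and in Nab6_Δ2 the points spread to both sides, with a median ratio of 0.933.

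Against Nab6, the modification level in Nab6_Δ4 was lower for 68 and higher for 4 of the 77 targets of Nab6_ΔIDR_1, with a median ratio of 0.438 and quartiles of 0.303 and 0.533. Every Nab6_Δ4 library was below every Nab6 library for 50 of the 77 and above for 0, where over all 349 genes tested 27.5% were below and 2.01% above in this way. The log2 fold change of the tagged share had a median of -1.17 over the 64 targets tested (62 negative, 2 positive), beside -0.86 over all 349 genes tested. The 2 positive genes were WSC2 and QCR10, with modification levels under 0.15 in the 3 strains. Library 4 of Nab6, with its higher tagging of nontargets, entered the value over all genes, and without it the median over all genes was -0.20 while that over the targets was -1.16.

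By edgeR's quasi-likelihood test with Benjamini-Hochberg adjustment, 12 genes (3.44% of those tested) had a lower tagged share in Nab6_Δ4 than in Nab6 and 0 a higher one (0% of those tested, with 1 gene higher at an unadjusted p under 0.05). All 12 are among the 77 targets of Nab6_ΔIDR_1, and 8 of the 12 hold the sequence GTTCNT after the stop codon, as do 61.0% of the 77 targets. Of the targets tested, 8 of 43 with the sequence and 4 of 21 without it were called. When tagged reads were set against the tagged reads of the library instead of the reads of the gene, edgeR called 0 genes in either direction. That setting largely takes out a fall shared by the targets, since 62.6% to 82.6% of the tagged reads of a library lay on Nab6 targets. It therefore cannot decide whether they fell together. On log2 tagged shares limma also called 0. The count was 40 without library 4, 6 without library 1 and 2 without library 2 of Nab6, and DESeq2 called 22.

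**Figure D4:**
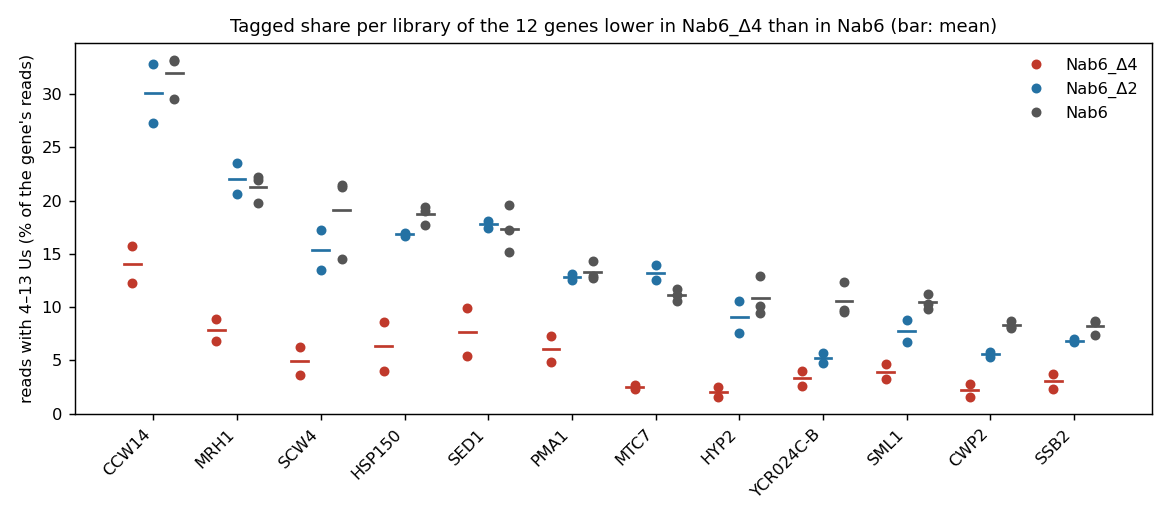
Tagged share (y axis, percent of the reads of the gene with 4–13 Us) of the 12 genes called lower in Nab6_Δ4 than in Nab6 by edgeR, with a point for each library and a bar at the mean, in the order Nab6_Δ4, Nab6_Δ2 and Nab6 within each gene. Both points of Nab6_Δ4 lie below all points of Nab6 for each of the 12 genes, while the points of Nab6_Δ2 lie near those of Nab6 for most.

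GPI-anchored wall proteins accounted for 3 of the 12. CCW14 (YLR390W-A, chrXII:903724-904440) had a tagged share of 12.3% and 15.7% in Nab6_Δ4, 27.3% and 32.8% in Nab6_Δ2, and 33.2%, 29.5% and 33.1% in Nab6. Its log2 fold change for Nab6_Δ4 against Nab6 was -1.19 ± 0.26 (SE, edgeR adjusted p = 0.0185). The strains Nab6_Δ2 and Nab6 overlapped, and Nab6_Δ4 was below both. CWP2 (YKL096W-A, chrXI:259253-259531), an abundant wall mannoprotein, had 1.53% and 2.81% in Nab6_Δ4, 5.34% and 5.80% in Nab6_Δ2, and 8.68%, 8.14% and 8.04% in Nab6. Here the 3 strains did not overlap, and the log2 fold change was -1.93 ± 0.30 (SE, edgeR adjusted p = 0.00229) for Nab6_Δ4 against Nab6. SED1, the main structural mannoprotein of stationary cells, had 5.41% and 9.88% in Nab6_Δ4, 17.5% and 18.1% in Nab6_Δ2, and 15.1%, 17.2% and 19.6% in Nab6, with a log2 fold change of -1.18 ± 0.30 (SE, edgeR adjusted p = 0.0432) for Nab6_Δ4 against Nab6. Of the 28 genes in the list of GPI-anchored wall proteins, 12 were tested, all 12 had a negative log2 fold change with a median of -1.15, and 3 passed the test. Over all 349 genes tested the median was -0.86 and 3.44% passed as lower. Negative values were not particular to wall genes. Of the glycolytic enzymes, with 0 targets among them, all 11 tested were negative with a median of -1.24, and 0 passed.

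HSP150 (PIR2, chrX:120449-121690) is a PIR protein linked to wall glucan. Its tagged share was 4.05% and 8.598% in Nab6_Δ4, 16.6% and 16.99% in Nab6_Δ2, and 17.7%, 19.4% and 19.02% in Nab6, with a log2 fold change of -1.57 ± 0.34 (SE, edgeR adjusted p = 0.0185) for Nab6_Δ4 against Nab6. It was the only one of the 3 PIR genes tested that passed, and all 3 had negative values with a median of -1.42. Over all 349 genes tested, 3.44% passed as lower and the median was -0.86. SCW4 (chrVII:1048798-1049958), a soluble wall protein with similarity to glucanases, had 3.63% and 6.24% in Nab6_Δ4, 17.2% and 13.5% in Nab6_Δ2, and 14.5%, 21.2% and 21.5% in Nab6, with a log2 fold change of -1.95 ± 0.50 (SE, edgeR adjusted p = 0.0472). In the list of 21 glucan and chitin enzymes 6 were tested, 1 passed and 5 were negative, with a median of -0.78, near that over all genes. BGL2, the transferase named above, had 12.1% and 14.7% in Nab6_Δ4, 24.0% and 25.2% in Nab6_Δ2, and 25.2%, 25.5% and 21.4% in Nab6, and missed the threshold (edgeR adjusted p = 0.0837).

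Membrane proteins formed another part of the 12. MRH1 (chrIV:508147-509109), a plasma membrane protein related to HSP30, had a tagged share of 6.81% and 8.85% in Nab6_Δ4, 20.6% and 23.5% in Nab6_Δ2, and 19.8%, 22.2% and 21.9% in Nab6. Its log2 fold change was -1.44 ± 0.27 (SE, edgeR adjusted p = 0.00825) for Nab6_Δ4 against Nab6. PMA1, the plasma membrane proton pump, had 4.87% and 7.29% in Nab6_Δ4, 12.6% and 13.1% in Nab6_Δ2, and 12.9%, 12.8% and 14.3% in Nab6, with a log2 fold change of -1.13 ± 0.28 (SE, edgeR adjusted p = 0.0407). For both genes the Nab6_Δ2 libraries lay among or beside those of Nab6.

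Genes with roles outside the cell surface were lowered as well. HYP2 (chrV:85676-86149), the translation factor eIF5A, had 1.60% and 2.49% tagged in Nab6_Δ4, 7.58% and 10.6% in Nab6_Δ2, and 9.47%, 10.1% and 12.9% in Nab6, with a log2 fold change of -2.40 ± 0.44 (SE, edgeR adjusted p = 0.00825) for Nab6_Δ4 against Nab6. MTC7 has a reading frame that starts 30 nt after the end of that of HYP2 on the same strand. MTC7 had 2.35% and 2.703% in Nab6_Δ4, 12.5% and 13.9% in Nab6_Δ2, and 10.6%, 11.1% and 11.7% in Nab6 (log2 fold change -2.14 ± 0.29, edgeR adjusted p = 0.00129). The counting windows of HYP2 and MTC7 can hold the same transcripts, so that they are uncertain as separate genes. SML1, an inhibitor of ribonucleotide reductase, had 3.26% and 4.62% in Nab6_Δ4, 6.69% and 8.81% in Nab6_Δ2, and 9.83%, 11.2% and 10.3% in Nab6 (log2 fold change -1.41 ± 0.31, edgeR adjusted p = 0.0199). SSB2, a ribosome-associated chaperone, had 2.35% and 3.69% in Nab6_Δ4, 6.69% and 7.01% in Nab6_Δ2, and 8.58%, 8.68% and 7.39% in Nab6 (log2 fold change -1.45 ± 0.32, edgeR adjusted p = 0.0185), and its 3′ end is in part repeated in the genome (24.5% of its 25-mers). For SML1 and SSB2 both Nab6_Δ2 libraries lay between Nab6_Δ4 and Nab6.

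The last of the 12 is YCR024C-B (chrIII:162599-162865), a short reading frame of unknown function. Its tagged share was 2.61% and 4.02% in Nab6_Δ4, 5.72% and 4.71% in Nab6_Δ2, and 9.76%, 9.58% and 12.4% in Nab6, with a log2 fold change of -1.67 ± 0.32 (SE, edgeR adjusted p = 0.00879) for Nab6_Δ4 against Nab6. PMP1, which encodes a regulator of the proton pump, has its stop codon 346 nt away on the same strand and had 878 reads over the 7 libraries against 20438 for YCR024C-B. Whether the reads of YCR024C-B belong to transcripts of PMP1 was not tested.

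MFA1, the strongest target in Nab6_Δ4, was among those that differed least. It had 10.9% and 17.8% tagged in Nab6_Δ4, 19.1% and 21.9% in Nab6_Δ2, and 18.1%, 22.9% and 20.2% in Nab6, with a log2 fold change of -0.51 ± 0.27 (SE, edgeR adjusted p = 0.504) for Nab6_Δ4 against Nab6. AGA2 had 8.25% and 18.2% in Nab6_Δ4, 26.4% and 33.7% in Nab6_Δ2, and 23.5%, 31.7% and 15.3% in Nab6, so that Nab6_Δ4 and Nab6 overlapped (log2 fold change -0.86 ± 0.43, edgeR adjusted p = 0.452). UTH1 had 8.59% and 14.8% in Nab6_Δ4, 26.5% and 29.3% in Nab6_Δ2, and 23.6%, 23.3% and 23.7% in Nab6, and missed the threshold (log2 fold change -1.01 ± 0.29, edgeR adjusted p = 0.0649). SUC2, the strongest target in Nab6, had 10.5% and 6.00% in Nab6_Δ4 on 76 and 50 reads, 27.1% and 25.5% in Nab6_Δ2, and 21.6%, 41.7% and 34.9% in Nab6 (log2 fold change -1.91 ± 0.81, edgeR adjusted p = 0.284). Without library 4 of Nab6, SUC2 passed (log2 fold change -1.67, edgeR adjusted p = 0.0262).

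Nab6_Δ2 differed from Nab6 in few genes. Over the 77 targets of Nab6_ΔIDR_1 the modification level was lower for 43 and higher for 30, with a median ratio of 0.933. The log2 fold change of the tagged share had a median of -0.05 over the 63 targets tested (36 negative, 27 positive), beside 0.11 over all 301 genes tested. Every Nab6_Δ2 library was below every Nab6 library for 13 of the 77 and above for 8, where over all genes tested 6.98% were below and 5.32% above.

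CWP2 and YCR024C-B were the 2 genes (0.664% of those tested) that edgeR called lower in Nab6_Δ2 than in Nab6, and 0 were called higher (0%, with 2 genes higher at an unadjusted p under 0.05). Their log2 fold changes were -0.58 ± 0.12 for CWP2 and -1.02 ± 0.22 for YCR024C-B (SE, edgeR adjusted p = 0.00957 for both), from the shares given above. The transcript level of CWP2, given below, was higher in each Nab6_Δ2 library than in every Nab6 library, without passing the test for level. Its lower share there is thus a share of more reads, and the RPM of its tagged reads was not compared. DESeq2 also called 2 lower and 0 higher, and limma 0 in either direction. The call count fell to 0 without either library of Nab6_Δ2, while without library 4 of Nab6 it was 3 lower, with SCW10 added, and 6 higher. SCW10, a paralog of SCW4, had 4.95% and 7.71% tagged in Nab6_Δ4, 1.81% and 4.20% in Nab6_Δ2, and 8.38%, 8.28% and 7.85% in Nab6. It was thus lowest in Nab6_Δ2, although the main fit, on all libraries of Nab6_Δ2 and Nab6, did not call it (log2 fold change -1.42, edgeR adjusted p = 0.519).

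On weaker targets, the pooled tagged share of Nab6_Δ2 was below that of Nab6. The 77 targets of Nab6_ΔIDR_1 were split at a modification level of 0.5 in Nab6_ΔIDR_1, a split chosen after the values had been seen. Over the 38 stronger targets the tagged share was 6.46% and 10.3% in Nab6_Δ4, 18.2% and 20.5% in Nab6_Δ2, and 18.4%, 19.2% and 18.8% in Nab6. Over the 39 weaker targets it was 2.08% and 3.46% in Nab6_Δ4, 4.73% and 5.02% in Nab6_Δ2, and 7.11%, 6.89% and 7.17% in Nab6. In these pooled shares Nab6_Δ2 overlapped Nab6 on the stronger targets and was below it on the weaker ones. Of the 39 weaker targets 25 were tested, with a median log2 fold change of -0.51 and quartiles of -0.93 and 0.20. Of these, 17 were negative and 8 positive, so that the weaker targets did not all go the same way. Without CWP2 and YCR024C-B the weaker targets had 2.57% and 3.98% in Nab6_Δ4, 4.25% and 4.56% in Nab6_Δ2, and 5.83%, 6.04% and 5.75% in Nab6. Nab6_Δ4 was below Nab6 on both the stronger and the weaker targets, with median log2 fold changes of -1.19 and -1.05.

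Single genes lay on either side. NPC2, a sterol-binding protein of the vacuole, had 5.17% and 11.1% tagged in Nab6_Δ4, 5% and 7.47% in Nab6_Δ2, and 11.4%, 15.9% and 11.5% in Nab6. TOS1, a wall protein, had 2.94% and 3.17% in Nab6_Δ4, 1.23% and 0.772% in Nab6_Δ2, and 4.11%, 4.00% and 6.08% in Nab6. Both genes were lower in Nab6_Δ2 than in every Nab6 library without passing the test over all genes (edgeR adjusted p = 0.999 for each). In the other direction, TIP1 had 8.53% and 12.2% in Nab6_Δ4, 24.7% and 30.5% in Nab6_Δ2, and 22.6%, 24.1% and 19.9% in Nab6, and NCE102, a protein of the plasma membrane eisosomes, had 8.21% and 9.90% in Nab6_Δ4, 20.5% and 22.8% in Nab6_Δ2, and 18.6%, 16.5% and 17.9% in Nab6. These 2 genes had Nab6_Δ2 above Nab6 in every library, again without passing the test.

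Set directly against each other, Nab6_Δ4 had a lower tagged share than Nab6_Δ2 in 17 genes by edgeR (4.87% of 349 tested) and a higher one in 0 (0%, with 3 genes higher at an unadjusted p under 0.05). Every library of Nab6_Δ4 was below every library of Nab6_Δ2 for 55 of the 77 targets and above for 2, where over all genes tested 57.6% were below and 3.15% above. The 77 include 13 genes that were not tested for too few tagged reads or RPM. The median log2 fold change was -1.18 over the targets and -1.08 over all genes. DESeq2 called 43 lower and limma 1, and the edgeR count was 11 without library 1 and 87 without library 2 of Nab6_Δ2.

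CTS1 (chrXII:708448-710136) passed for Nab6_Δ4 against Nab6_Δ2 only. It had 4.28% and 12.2% tagged in Nab6_Δ4, 27.6% and 30.3% in Nab6_Δ2, and 21.7%, 19.2% and 14.7% in Nab6, so that no strain overlapped another. The log2 fold change was -1.86 ± 0.54 (SE, edgeR adjusted p = 0.0259) for Nab6_Δ4 against Nab6_Δ2, while the test was missed for Nab6_Δ4 against Nab6 (edgeR adjusted p = 0.253) and for Nab6_Δ2 against Nab6 (edgeR adjusted p = 0.999). YLR285C-A, downstream of CTS1 with stop codons 280 nt apart, may count the same transcripts. MTC7, HYP2, MRH1, HSP150, TIP1 and CWP2 passed in this comparison too, with log2 fold changes of -2.39, -2.18, -1.50, -1.43, -1.42 and -1.36 and edgeR adjusted p between 0.000188 and 0.0498.

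Genes outside the cell wall were among the 17. UTP6, a factor of ribosomal RNA processing, had 0.579% and 0.387% tagged in Nab6_Δ4, 2.35% and 2.16% in Nab6_Δ2, and 0.750%, 0.916% and 2.36% in Nab6 (log2 fold change -2.22 ± 0.59, edgeR adjusted p = 0.0118 for Nab6_Δ4 against Nab6_Δ2). RKM3, a ribosomal lysine methyltransferase, had 0.639% and 0.908% in Nab6_Δ4, 9.32% and 3.40% in Nab6_Δ2, and 0.510%, 1.69% and 2.44% in Nab6 (log2 fold change -2.94 ± 0.81, edgeR adjusted p = 0.0171). Library 4 of Nab6 was near Nab6_Δ2 for UTP6, as it was for nontargets as a whole. DDR2 had the most negative value, -4.58 ± 0.93 (SE, edgeR adjusted p = 0.000188), with 949 and 129 reads in Nab6_Δ4 but 46 and 74 in Nab6_Δ2. Relative to the tagged reads of the library, edgeR called 4 genes higher (TOS1, SCW10, SAH1 and DED1) and 1 lower (DDR2) in Nab6_Δ4 than in Nab6_Δ2.

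Lists differed widely in their pooled tagged share. Cytosolic ribosomal proteins had 0.0959% and 0.107% in Nab6_Δ4, 0.341% and 0.138% in Nab6_Δ2, and 0.0809%, 0.0764% and 0.461% in Nab6. Glycolytic enzymes had 0.0637% and 0.0736% in Nab6_Δ4, 0.314% and 0.159% in Nab6_Δ2, and 0.104%, 0.0864% and 0.344% in Nab6. In both lists library 1 of Nab6_Δ2 and library 4 of Nab6 were highest, as over all nontargets. The 5 MATa genes, with MFA1 and AGA2 among them, had 2.65% and 4.47% in Nab6_Δ4, 11.3% and 11.8% in Nab6_Δ2, and 7.41%, 8.25% and 9.12% in Nab6. The 12 genes of secreted and periplasmic proteins had 2.18% and 3.67% in Nab6_Δ4, 5.25% and 6.25% in Nab6_Δ2, and 4.69%, 5.75% and 5.68% in Nab6. In both of these lists the Nab6_Δ4 libraries were below every other library. The 5 PIR genes pooled had 2.53% and 4.83% tagged in Nab6_Δ4, 14.7% and 13.6% in Nab6_Δ2, and 13.8%, 12.9% and 17.1% in Nab6.

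Transcript levels, measured by all reads of a gene, also differed between Nab6_Δ4 and the other strains. In bulk cultures, a change in some cells and a change in all cells cannot be told apart. Of 5338 genes tested by edgeR, 369 (6.91%) were higher and 422 (7.91%) lower in Nab6_Δ4 than in Nab6. Against Nab6_Δ2, 760 (13.9%) were higher and 686 (12.6%) lower in Nab6_Δ4 of 5461 genes. Between Nab6_Δ2 and Nab6, 0 genes were higher (0%) and 0 lower (0%) of 5118, with 157 higher and 174 lower at an unadjusted p under 0.05, and DESeq2 called 5 higher and 6 lower. Without library 4 of Nab6, edgeR called 33 higher and 16 lower in Nab6_Δ2. The counts for Nab6_Δ4 against Nab6 needed both clones, with 127 higher and 114 lower without library 1 and 72 higher and 24 lower without library 2.

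**Figure D5:**
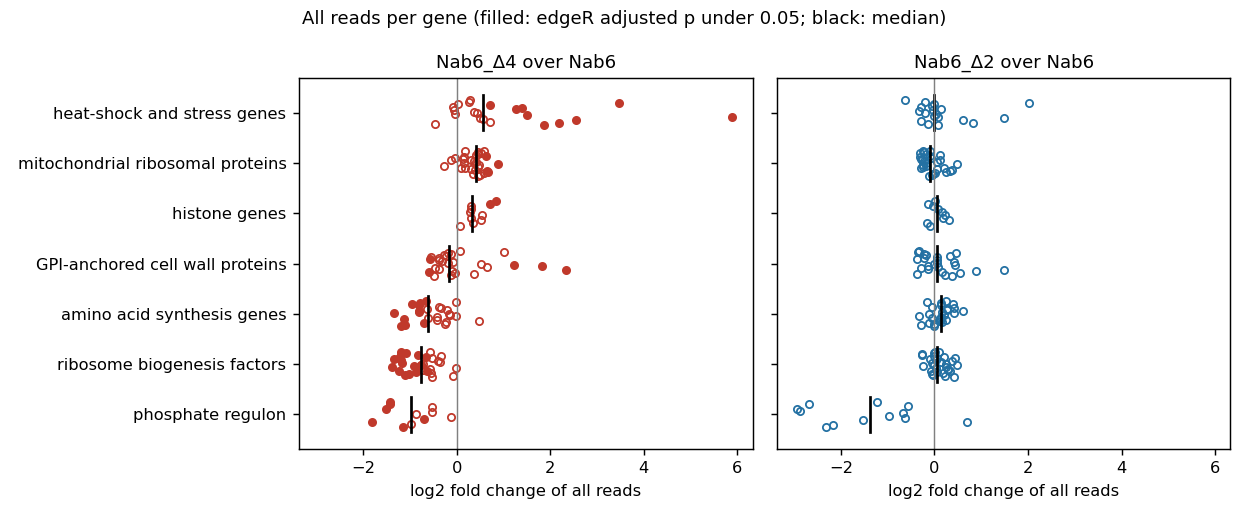
Log2 fold change of all reads (x axis) against Nab6 for Nab6_Δ4 (left) and Nab6_Δ2 (right) for the genes of fixed lists (rows), with a point for each gene, filled where the edgeR adjusted p is under 0.05, and a black bar at the median. In Nab6_Δ4, 9 of 21 stress genes are filled to the right and 18 of 30 ribosome biogenesis factors to the left, while no gene is filled in Nab6_Δ2. Over all genes tested for Nab6_Δ4, 6.91% were higher and 7.91% lower.

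Heat-shock and stress genes were higher in Nab6_Δ4. Of 21 tested, 9 were higher and 0 lower than in Nab6 with a median log2 fold change of 0.55. Over all genes tested 6.91% were higher and 7.91% lower, with a median of -0.00. HSP12, a small membrane-associated stress protein, had 1523 and 303 RPM in Nab6_Δ4, 64.0 and 35.5 RPM in Nab6_Δ2, and 14.98, 5.94 and 40.8 RPM in Nab6, with a log2 fold change of 5.89 ± 0.61 (SE, edgeR adjusted p = 0.00019). The clones differed widely, but both were above every other library. RTC3, a stress protein, had 267 and 174 RPM in Nab6_Δ4, 74.8 and 29.5 RPM in Nab6_Δ2, and 21.6, 16.1 and 15.05 RPM in Nab6 (log2 fold change 3.69 ± 0.23, edgeR adjusted p = 3.87e-06). The cytosolic chaperone SSA1 had 657 and 486 RPM in Nab6_Δ4, 265 and 127 RPM in Nab6_Δ2, and 212, 149 and 148 RPM in Nab6 (log2 fold change 1.87 ± 0.21, edgeR adjusted p = 0.000204). Without either clone, 6 and 7 of the 21 were still called higher.

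Part of the ribosome biogenesis and amino acid synthesis genes were lower in Nab6_Δ4. Of 30 ribosome biogenesis factors 18 were lower and 0 higher than in Nab6, with a median log2 fold change of -0.77, and 27 were lower than in Nab6_Δ2. Over all genes tested, 7.91% were lower than in Nab6 and 12.6% lower than in Nab6_Δ2. UTP10, a subunit of the small-subunit processome, had 30.3 and 23.5 RPM in Nab6_Δ4, 118 and 78.9 RPM in Nab6_Δ2, and 59.0, 69.6 and 123 RPM in Nab6 (log2 fold change -1.38 ± 0.23, edgeR adjusted p = 0.00265). All 30 factors had negative values, but the count called was 9 without library 1 and 2 without library 2 of Nab6_Δ4. Of 25 amino acid synthesis genes 11 were lower and 0 higher, among them LEU1 of leucine synthesis with 262 and 209 RPM in Nab6_Δ4, 676 and 616 RPM in Nab6_Δ2, and 526, 537 and 653 RPM in Nab6 (log2 fold change -1.13 ± 0.19, edgeR adjusted p = 0.0024). Without either clone 3 of the 25 passed. FAS2, a subunit of fatty acid synthase, had 337 and 281 RPM in Nab6_Δ4, 1104 and 842 RPM in Nab6_Δ2, and 811, 977 and 1139 RPM in Nab6 (log2 fold change -1.51 ± 0.21, edgeR adjusted p = 0.000881). Of 138 cytosolic ribosomal proteins 0 were higher and 1 lower, with a median log2 fold change of 0.19.

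Part of the phosphate regulon genes were lower in Nab6_Δ4 than in Nab6, and most had negative values in Nab6_Δ2 too. Summed, the 12 genes of the list had 762 and 1253 RPM in Nab6_Δ4, 629 and 737 RPM in Nab6_Δ2, and 1619, 2142 and 1043 RPM in Nab6. Nab6_Δ4 thus overlapped Nab6 in the sum, and Nab6_Δ2 was below it. Of 11 tested for Nab6_Δ4, 6 were lower and 0 higher than in Nab6 (median log2 fold change -0.98), beside 7.91% lower over all genes tested. For Nab6_Δ2 0 of 12 passed, while 11 of 12 were negative with a median of -1.38. PHO84, the high-affinity phosphate transporter, had 41.2 and 113 RPM in Nab6_Δ4, 22.8 and 48.0 RPM in Nab6_Δ2, and 237, 300.5 and 129 RPM in Nab6, with log2 fold changes of -1.43 ± 0.43 (SE, edgeR adjusted p = 0.04) for Nab6_Δ4 and -2.69 ± 0.42 (SE, edgeR adjusted p = 0.075) for Nab6_Δ2. For PHO84 both deletion strains were below every Nab6 library. Between the deletion strains, 6 of the 12 list genes were higher and 1 lower in Nab6_Δ4 than in Nab6_Δ2, beside 13.9% higher and 12.6% lower over all genes tested. Without library 4 of Nab6, edgeR called 7 of the 12 lower in Nab6_Δ2, and without library 1 of Nab6_Δ4 it called 0 in Nab6_Δ4.

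Some of the Nab6 targets passed for transcript level in Nab6_Δ4, in both directions. Of the 77 targets of Nab6_ΔIDR_1, 9 were higher and 8 lower in Nab6_Δ4 than in Nab6, with a median log2 fold change of -0.08. Over all genes tested 6.91% were higher and 7.91% lower, and whether the targets differ from this was not tested. The 77 were chosen with at least 100 reads, so that the shares are not strictly alike. In Nab6_Δ2 0 of the 77 passed in either direction, with a median of 0.16. CWP2, with a lower tagged share in Nab6_Δ4, had 7166 and 6030 RPM in Nab6_Δ4, 4269 and 4645 RPM in Nab6_Δ2, and 3694, 2689 and 3020 RPM in Nab6, and was thus higher in level (log2 fold change 1.22 ± 0.22, edgeR adjusted p = 0.0039). SUC2 was lower in level, with 13.7 and 12.6 RPM in Nab6_Δ4, 92.2 and 51.0 RPM in Nab6_Δ2, and 51.1, 30.6 and 92.4 RPM in Nab6 (log2 fold change -1.85 ± 0.29, edgeR adjusted p = 0.0018). HSP150, whose tagged share was also lower, had 774 and 460.5 RPM in Nab6_Δ4, 2920 and 1805 RPM in Nab6_Δ2, and 1030, 712 and 1492 RPM in Nab6. It was lower in Nab6_Δ4 than in Nab6_Δ2 (log2 fold change -1.69 ± 0.22, edgeR adjusted p = 1.69e-05) and missed the threshold against Nab6 (edgeR adjusted p = 0.116).

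Among the 28 GPI-anchored wall genes, 26 were tested for level in Nab6_Δ4 against Nab6, of which 3 were higher (CWP1, CWP2 and SPI1) and 2 lower (UTR2 and PLB1), beside 6.91% higher and 7.91% lower over all genes, with a median log2 fold change of -0.16. CWP1, a paralog of CWP2 that was hardly tagged in any strain, had 811 and 853 RPM in Nab6_Δ4, 300.4 and 206 RPM in Nab6_Δ2, and 319, 242 and 215 RPM in Nab6 (log2 fold change 1.81 ± 0.22, edgeR adjusted p = 0.000244). UTR2, a chitin transglycosylase, had a log2 fold change of -0.60 ± 0.18 (SE, edgeR adjusted p = 0.0454). In Nab6_Δ2 0 of 25 passed, with a median of 0.05.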

How the data were processed

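RNA tagging was compared in 7 libraries of 3 Nab6-Pup2 strains. Per the labels, the authors used bcl2fastq, cutadapt, Bowtie2 and bedtools with the build R64 (versions not given in the sources used here). The deposited values are counts of sense reads per gene and U length (0 to 16), in a window of 300 nt before and 100 nt after the termination site, without normalization. The adapter carried a UMI, whose use in the counts is not stated. The members and gene lists were chosen with earlier results of these data known.

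Libraries were scaled to 1e+06 reads. Tagged reads (4 to 13 Us) were tested with edgeR 4.0.16 (glmQLFTest, offset log of all reads of the gene) for genes at 10 or more tagged reads and 16 or more RPM. All reads were tested with TMM and filterByExpr, and p-values adjusted by Benjamini-Hochberg over all genes tested. DESeq2 1.42.0, limma 3.58.1 (pseudocount 0.5 on tagged and 1 on all reads), other filters, thresholds and left-out libraries were alternatives, and simulated data served to check the edgeR models. Library values were compared by exact permutation tests in scipy 1.17.1. Replicates differed beyond counting error (chi-square over degrees of freedom 5.15 or more). Of 6629 gene IDs, 5956 matched RefSeq R64 names. Named genes were the 10 with the smallest and largest fold changes (5 for Nab6_Δ4 against Nab6_Δ2 and for all reads) among those passing the test without overlap of libraries, with 100 reads in every library for tagged shares and 16 RPM for all reads, the 10 of highest modification per strain, NAB6 and list members. SCW10, TOS1, NPC2, NCE102, DDR2, WSC2, QCR10, SAH1, DED1 and the ribosomal DNA transcript were named after their values were seen.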

Additional observations from a re-analysis of the deposited data

Results flagged for a closer look

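Reads with 14 or 15 Us are outside the tagged lengths of the main comparisons, but they fell on the Nab6 targets far more than in the dPup2 libraries. Their share on the 182 Nab6 targets was at least 46.1% in Nab6_Δ4, at least 73.0% in Nab6_Δ2 and at least 53.4% in Nab6, against at most 5.06% in the 11 dPup2 libraries.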

How the results depend on the processing

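Counts of genes with a changed tagged share depended on the setting. Relative to the tagged total, the median log2 fold change over all genes tested for Nab6_Δ4 against Nab6 was 0.14, against -0.86 on the tagged share. For Nab6_Δ4 against Nab6, the count lower was 21 with all 7 libraries in 1 fit, 22 by DESeq2, 0 by limma, 0 with 4 to 16 Us as tagged and 0 relative to the tagged total, and 2 to 40 with 1 library left out (higher 0 to 4). For Nab6_Δ4 against Nab6_Δ2 it was 43 by DESeq2, 1 by limma, 0 with 4 to 16 Us, 1 relative to the tagged total (higher 4) and 11 to 87 with 1 library left out. For Nab6_Δ2 against Nab6 it was 0 with all 7 libraries in 1 fit, by limma, with 4 to 16 Us (higher 1) and relative to the tagged total, and 0 to 3 with 1 library left out (higher 0 to 6). For all reads, DESeq2 gave 226 higher for Nab6_Δ4 against Nab6 and 399 lower for Nab6_Δ4 against Nab6_Δ2. Leaving out 1 library gave 72 to 415 higher and 24 to 493 lower for Nab6_Δ4 against Nab6, 430 to 643 higher and 393 to 608 lower for Nab6_Δ4 against Nab6_Δ2, and 0 to 33 higher and 0 to 16 lower for Nab6_Δ2 against Nab6. The last comparison gave 5 higher and 6 lower by DESeq2, 4 and 6 without a filter on low counts, and 3 and 5 with untagged reads. A lone library was assumed to vary like the other strain.

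Same-numbered libraries of Nab6_Δ2 and Nab6 did not pair throughout (correlation of deviations -0.21 for number 1 and 0.24 for number 2). Library 1 of Nab6_Δ2 deviated most like library 4 of Nab6 (0.32), and library 2 most like library 2 of Nab6 (0.24). With 2 libraries of Nab6_Δ2 their deviations mirror each other, so that these values are not separate checks. With the replicate block, Nab6_Δ2 against Nab6 gave 7 higher and 3 lower for tagged share and 50 higher and 46 lower for all reads. Nab6_Δ4 was not fitted with a block, since its titles number clones. Targets of Nab6_Δ4 were 41 above a threshold of 0.3 and 110 without the expression minimum. Those of Nab6_Δ2 were 252 above 0.1, 71 above 0.3, 92 with at least 100 reads and 125 to 276 by single library. Those of Nab6 were 287 above 0.1, 91 above 0.3, 108 with reads summed and 95 to 271 with 1 library left out. The setting of 4 to 16 Us takes in the 16-U reads that were also seen with dPup2. With it the tagged share of the library differed by -2.72 percentage points for Nab6_Δ4 and 2.38 for Nab6_Δ2 against Nab6. For Nab6_Δ4 against Nab6_Δ2 the difference was -5.09. Of the values of single named genes under the alternatives, 311 stayed on their side of the threshold and 165 lost it. The cause of these shifts was not tested.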
